A study of Mus musculus with 12 samples.

Results

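Cholesterol is built from acetyl-CoA in a long chain of enzyme steps, and 7 mouse genes of that chain and its control were followed here: Srebf2, Insig1, Hmgcs1, Mvd, Idi1, Sqle and Lss. A probe counted as a member where it was no control spot and its RefSeq accession belonged to one of these 7 symbols. By that rule 10 of 41174 probes were members and covered 6 of the 7 genes, out of 16535 genes named on the array. Hmgcs1, Insig1, Lss and Srebf2 had 2 probes each, Mvd and Sqle had 1, and Idi1, the isomerase of isopentenyl diphosphate, had no matched probe and was not analysed here. The genes were listed as those of cholesterol synthesis and uptake, but none of the 6 measured ones encodes an uptake receptor, so they are called synthesis genes below.

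Liver and esophagus RNA came from 6 male mice aged 8 months on a mixed 129Sv/C57BL6 background, with 1 array per organ and mouse. The 3 TG mice were Col1a1tetO-Nanog/+;Rosa26rtTA/+, in which doxycycline lets the rtTA activator at Rosa26 switch on a Nanog transgene at Col1a1. The 3 CTR mice were Col1a1+/+;Rosa26rtTA/+, with the activator and no transgene. All 6 mice, CTR included, drank 7.5% sucrose with doxycycline at 0.2 mg/ml for 48 h, and no group without doxycycline or sucrose was analysed here. Rosa26 is active in most tissues, so the activator is not limited to one cell type of either organ. Organ pieces of the same mouse carry the same number below, so liver TG1 and esophagus TG1 came from one animal.

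The synthesis chain starts in the cytosol, where acetyl-CoA units are joined and turned into mevalonate, then into isoprene units, then into squalene, which is oxidized and folded into the first sterol. Its genes are switched on together by SREBP-2, a transcription factor encoded by Srebf2 that is held in the endoplasmic reticulum while sterol is plentiful. INSIG proteins do the holding, and when sterol runs low the factor is cut free and enters the nucleus. The liver makes much of the cholesterol for the body and adjusts it to meals and to the time of day, while most other tissues make it for their own membranes.

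The DNA just before the start of 4 of these genes is shown because genes under SREBP-2 are read through short sterol regulatory elements there, which usually lie beside CCAAT boxes. Each is the 250 bases before the RefSeq gene start in GRCm38.p6, printed 5′ to 3′ on the gene's strand, and capitals mark TCACCCCA, a core of the sterol regulatory element, or CCAAT on either strand (ATTGG on the printed one).
Hmgcs1, chr13:119690101-119690350, plus strand: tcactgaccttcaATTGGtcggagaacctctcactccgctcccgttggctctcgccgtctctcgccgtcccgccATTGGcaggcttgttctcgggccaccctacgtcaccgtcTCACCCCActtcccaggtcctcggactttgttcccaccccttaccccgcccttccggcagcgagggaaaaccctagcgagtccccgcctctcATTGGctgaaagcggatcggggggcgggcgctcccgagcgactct
Srebf2, chr15:82147019-82147268, plus strand: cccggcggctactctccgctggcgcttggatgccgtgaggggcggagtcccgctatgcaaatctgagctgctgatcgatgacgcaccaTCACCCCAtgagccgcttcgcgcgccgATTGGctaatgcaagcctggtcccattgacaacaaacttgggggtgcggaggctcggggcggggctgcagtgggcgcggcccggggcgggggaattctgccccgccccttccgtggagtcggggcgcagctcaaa
Insig1, chr5:28071162-28071411, plus strand: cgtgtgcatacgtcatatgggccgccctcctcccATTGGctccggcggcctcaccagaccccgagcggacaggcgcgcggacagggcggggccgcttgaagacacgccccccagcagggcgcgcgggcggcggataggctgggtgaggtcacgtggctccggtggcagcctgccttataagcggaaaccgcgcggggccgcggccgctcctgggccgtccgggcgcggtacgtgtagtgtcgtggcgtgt
Mvd, chr8:122443423-122443672, minus strand: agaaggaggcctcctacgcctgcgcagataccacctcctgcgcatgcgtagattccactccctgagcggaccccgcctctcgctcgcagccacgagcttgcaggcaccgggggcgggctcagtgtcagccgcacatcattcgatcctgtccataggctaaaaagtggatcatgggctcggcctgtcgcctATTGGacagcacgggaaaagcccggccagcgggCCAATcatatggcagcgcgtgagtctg
The core TCACCCCA (reverse complement TGGGGTGA) began 137 bases before the start of Hmgcs1 and 162 bases before that of Srebf2. It was found in 2 of the 6 listed genes with a window, Idi1 included and Sqle not, and in 1.34% of 32851 such windows over all genes. CCAAT or ATTGG was found in 6 of the 6 and in 33.8% of all windows, and GGGCGG or CCGCCC, the GC box, in 6 of the 6 and in 32.7%. The stretches in capitals do not overlap one another. The letters were picked after the windows had been read, and a match is a run of letters, with no binding measured here.

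Levels are normalized log2 signals, that is the log2 of the background-subtracted brightness of a probe minus the 75th percentile of its array, so 0 stands for that percentile and 1 unit for a doubling. Since probes differ in brightness, a level is compared between arrays and never between genes. The brightest probe stands for a gene with several, and it was well above background on all 12 arrays for each of the 6 genes. Differences were tested with limma over all units of the array, where a unit is a named gene or a probe without a name, with Benjamini-Hochberg adjustment and a threshold of 0.05.

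Between 56.5% and 81.8% of probes were well above background per array. The extremes were livers of opposite genotype, CTR3 at 56.5% and TG3 at 81.8%, and the other arrays lay between 66.3% and 75.2%. Arrays of one group correlated at 0.942 to 0.986 and arrays of different organs at 0.776 to 0.817. Hepatocyte markers, 9 of 10 with a probe, summed to 3820 to 4770 in the livers and 0.809 to 2.09 in the esophagi on the linear scale, where 1 is the 75th percentile. Markers of layered epithelium, all 10 with a probe, summed to 528 to 735 in the esophagi and 0.999 to 2.33 in the livers, so each array matched its organ. The single Nanog probe failed to rise well above background on 12 of the 12 arrays, and none of the sources used here says whether it lies within the transgene, so TG and CTR rest on the labels.

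Srebf2, the regulator that drives the synthesis genes, was higher in the esophagus than in the liver in both genotypes. In the livers its normalized log2 signal was -0.35, 0.13 and -0.27 in TG1, TG2 and TG3 and 0.30, -0.39 and -0.51 in CTR1, CTR2 and CTR3. In the esophagi it was 0.92, 0.51 and 1.05 in the TG mice and 1.04, 0.74 and 0.30 in the CTR mice. All esophagi were at or above the highest liver: liver CTR1 and esophagus CTR3 both rounded to 0.30, and within each genotype the organs did not overlap. The esophagus exceeded the liver by 0.89 ± 0.27 (SE) in CTR mice, 1.86-fold, with an adjusted p of 0.0153 in limma. In TG mice the excess was 0.99 ± 0.27 (SE), 1.98-fold, with an adjusted p of 0.00922. The CTR call was lost with slide as a fixed block (0.76, adjusted p = 0.0701) and without liver CTR2 (0.80, 0.0534), liver CTR3 (0.74, 0.0606) or esophagus CTR1 (0.72, 0.0623). The second Srebf2 probe, above background on 11 of the 12 arrays, went the other way, with the esophagus lower by -0.96 in CTR mice (adjusted p over all probes 0.127) and by -0.36 in TG mice (0.558), neither past the threshold. The direction for Srebf2 therefore rests on 1 of its 2 probes.

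Insig1 encodes one of the proteins that hold SREBP-2 back, and its own gene is a target of that factor. It had the largest organ difference of the 6 genes. Its normalized log2 signal was 1.41, 1.41 and 1.04 in the TG livers and 1.50, 1.49 and 1.99 in the CTR livers. The esophagi stood at -1.43, -1.79 and -1.71 in TG mice and -0.95, -1.40 and -1.57 in CTR mice. Every liver was above every esophagus. From high to low the group levels were 1.66 ± 0.29 in liver CTR, 1.29 ± 0.21 in liver TG, -1.31 ± 0.32 in esophagus CTR and -1.65 ± 0.19 in esophagus TG (mean ± SD, n = 3). The neighbours in that order within an organ did not pass the test. Organs were tested only within a genotype, and that difference passed in CTR and in TG mice. In CTR mice the esophagus was 7.8-fold lower (log2 difference -2.96 ± 0.22 SE, limma adjusted p = 9.33e-07) and in TG mice 7.63-fold lower (-2.93 ± 0.22 SE, adjusted p = 1.07e-06). The second probe gave -2.89 and -3.26, with adjusted p over all probes of 4.59e-07 and 1.92e-07.

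Hmgcs1 encodes the cytosolic HMG-CoA synthase, which makes the precursor of mevalonate. Liver levels were 6.42, 7.60 and 6.08 in the TG mice and 7.56, 6.30 and 4.78 in the CTR mice on the normalized log2 scale. Esophagus levels were 4.72, 4.44 and 4.97 in the TG mice and 4.91, 4.82 and 4.88 in the CTR mice. The livers spread over 2.83 log2 units, a 7.09-fold range, while the esophagi lay within 0.54, a 1.45-fold range, and liver CTR3 alone among the livers fell into the range of the esophagi. In TG mice the esophagus was 3.97-fold lower than the liver (-1.99 ± 0.60 SE, limma adjusted p = 0.0139). In CTR mice the difference was -1.35 ± 0.60 (SE), adjusted p = 0.0716, and it passed without liver CTR3 (-2.07, adjusted p = 0.00424) and with slide as a fixed block (-1.66, 0.029). It was smaller with quantile normalization (-0.62, adjusted p = 0.389), with normexp (-0.63, 0.315), in the authors' deposited table (-0.63, 0.314), without liver CTR1 (-0.68, 0.269) and without liver and esophagus CTR1 (-0.70, 0.34). The TG call was lost with quantile normalization (-1.18, adjusted p = 0.113), with normexp background correction (-1.18, 0.067), in the authors' deposited table (-1.18, 0.0682) and without liver TG2 (-1.54, 0.0569). The second probe gave -0.18 in CTR mice and -0.48 in TG mice, with adjusted p over all probes of 0.762 and 0.398.

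Mvd encodes the decarboxylase that turns mevalonate diphosphate into the first isoprene unit. Its normalized log2 signal in the livers was 1.17, 1.98 and 0.78 in TG mice and 2.14, 0.80 and 0.75 in CTR mice, against 1.31, 0.67 and 1.32 in the TG esophagi and 1.27, 1.37 and 1.21 in the CTR esophagi. Liver TG2 and liver CTR1 stood above all other arrays, and esophagus TG2 below them all. The organ difference was small beside its error, at 0.06 ± 0.40 (SE, adjusted p = 0.907) in CTR mice and -0.21 ± 0.40 (adjusted p = 0.661) in TG mice by limma. The 95% intervals, -0.83 to 0.95 and -1.11 to 0.68, leave room for a difference in either direction.

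Sqle encodes squalene epoxidase, which adds the oxygen that later becomes the hydroxyl group of cholesterol. The TG livers stood at 3.78, 4.63 and 3.37 and the CTR livers at 4.76, 3.53 and 3.45 in normalized log2 signal, with 3.24, 2.62 and 3.39 in the TG esophagi and 3.16, 3.38 and 2.95 in the CTR esophagi. All CTR livers were above all CTR esophagi, though closely, while in TG mice esophagus TG3 reached just above liver TG3. Neither organ difference passed in limma, at -0.75 ± 0.40 (SE, adjusted p = 0.13) in CTR mice and -0.84 ± 0.40 (adjusted p = 0.0917) in TG mice. The CTR difference passed with slide as a fixed block (-0.98, adjusted p = 0.0432) and the TG one without liver TG3 (-1.12, 0.0426). The CTR difference was -0.34 with quantile normalization (adjusted p = 0.458), -0.36 with normexp, -0.35 in the authors' deposited table, -0.33 without liver CTR1 (0.453) and -0.32 without liver and esophagus CTR1. The TG difference was -0.41 with quantile normalization (adjusted p = 0.377), -0.42 with normexp, -0.41 in the authors' deposited table and -0.49 without liver TG2 (0.313).

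Lss encodes lanosterol synthase, which folds oxidized squalene into the first sterol ring system. Its normalized log2 signal was 0.86, 1.27 and 0.33 in the TG livers, 1.83, 1.12 and 0.81 in the CTR livers, 0.62, 0.33 and 0.88 in the TG esophagi and 0.51, 0.98 and 0.60 in the CTR esophagi. Liver CTR1 and liver TG2 were again the highest, and the organs overlapped in both genotypes. The organ difference was -0.56 ± 0.31 (SE, limma adjusted p = 0.139) in CTR mice and -0.22 ± 0.31 (adjusted p = 0.56) in TG mice. The CTR difference passed with slide as a fixed block (-0.76, adjusted p = 0.0334) and for the second probe, at -0.52 with an adjusted p over all probes of 0.0406. It was -0.27 without liver CTR1 (adjusted p = 0.448) and -0.18 without liver and esophagus CTR1 (0.673).

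**Figure D1:**
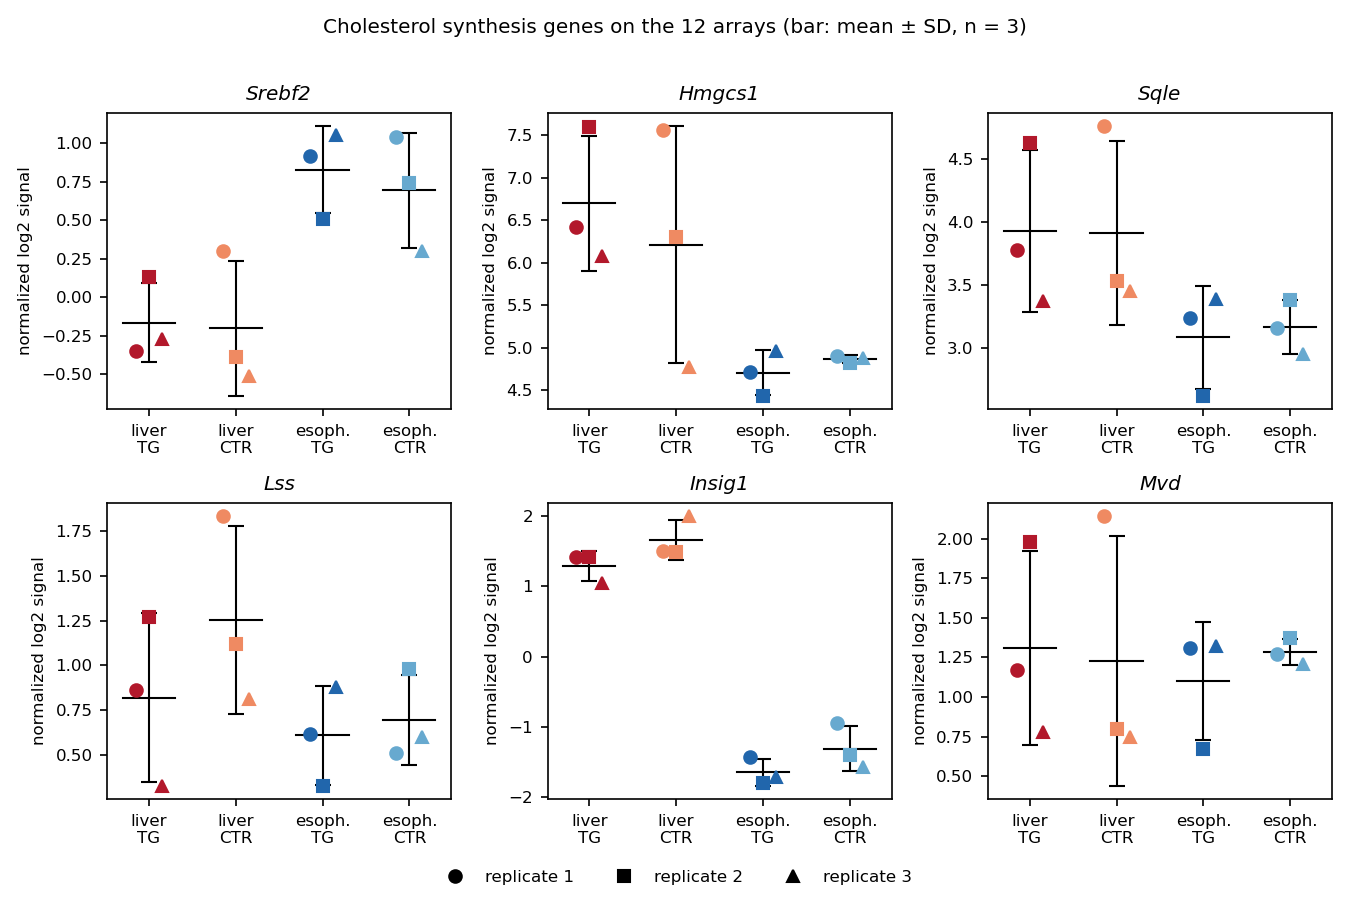
Normalized log2 signal (vertical axes, each with its own range) of the 6 genes in liver TG, liver CTR, esophagus TG and esophagus CTR. Points are single arrays, with circles, squares and triangles for replicates 1, 2 and 3, and bars are the mean ± SD (n = 3). Each gene is shown by its brightest probe. Insig1 separates the organs completely, Srebf2 is higher in the esophagus, and replicate 2 of liver TG and replicate 1 of liver CTR stand high for every gene but Insig1.

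Between the organs, 1 of the 6 genes was called higher in the esophagus (Srebf2) and 1 lower (Insig1) in CTR mice, and 1 higher (Srebf2) and 2 lower (Insig1 and Hmgcs1) in TG mice. Over all 23362 units tested in CTR mice 62.4% were called, 27.8% higher and 34.6% lower, and over 23904 units in TG mice 63.3%, 24.4% higher and 38.9% lower. The counts of called synthesis genes, 2 of 6 and 3 of 6, did not exceed those shares. Values of the organs did not overlap for 68.1% of units in CTR mice and 71.1% in TG mice, and for 3 of the 6 genes in each. The median difference of the 6 genes was -0.65 in CTR mice and -0.53 in TG mice, beside -0.14 and -0.36 over all units. With quantile normalization the medians of the 6 genes were -0.41 and -0.29, beside -0.04 and -0.08 over all units. The median of the 6 was -0.30 without liver CTR1 in CTR mice and -0.24 without liver TG2 in TG mice. The RNA of the esophagi went through a fibrous-tissue kit and that of the livers through Trizol lysis before a column, so the organ and its RNA preparation cannot be told apart. In bulk tissue, fewer cells that use a gene and less of its RNA per cell cannot be told apart either.

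Within single animals Insig1 was lower in the esophagus of 6 of 6 mice, by -3.56 to -2.45 log2 units, and by -3.36 to -2.40 on its second probe. Srebf2 was higher in the esophagus of 6 of 6 mice on its brightest probe, by 0.38 to 1.32, and of 1 of 6 on its second probe, which ran from -2.29 to 0.07. On their brightest probes Hmgcs1, Sqle and Lss were each lower in 5 of 6 mice, and Mvd in 2 of 6, which were TG2 and CTR1. For Hmgcs1 the differences were -1.70, -3.17 and -1.10 in TG1, TG2 and TG3 and -2.65, -1.49 and 0.10 in CTR1, CTR2 and CTR3. Mice TG2 and CTR1 had the largest gaps for Hmgcs1, Sqle, Lss and Mvd, and they are the mice with the highest liver values. With animal as a block the calls were those given above for each of the 6 genes.

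**Figure D2:**
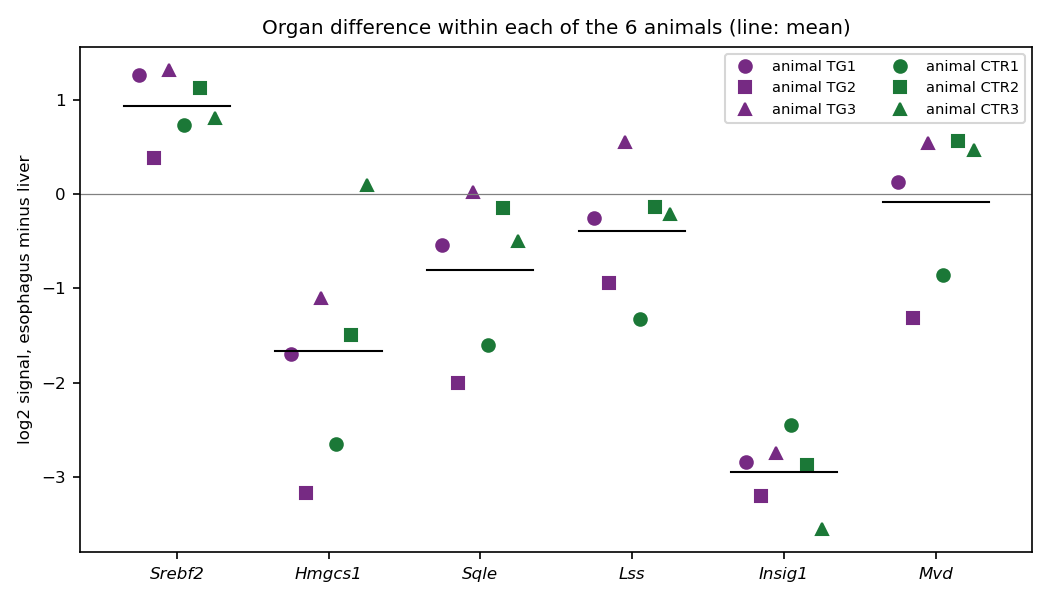
Esophagus minus liver in log2 signal (vertical axis) within each of the 6 mice, for each gene along the horizontal axis, by its brightest probe, with TG mice in purple, CTR mice in green, and a line at the mean of the 6. Srebf2 lies above 0 and Insig1 at -2.45 or lower in every mouse, while Hmgcs1 runs from -3.17 to 0.10.

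The design asks how gene expression differs between Nanog transgenic and control mice within each organ. None of the 6 synthesis genes passed in TG against CTR mice, in liver or in esophagus, and no unit of the array did: 0 of 21240 (0%) in liver and 0 of 23196 (0%) in esophagus by limma, with 8.33% and 3.98% at an unadjusted p under 0.05. By the brightest probes the largest difference in liver was that of Hmgcs1, 0.49 ± 0.59 (SE, adjusted p = 0.799), with a 95% interval from 0.57-fold to 3.44-fold. The livers of that gene ran from 6.08 to 7.60 in TG mice and from 4.78 to 7.56 in CTR mice, so the groups overlapped over most of their range. The second probes of Hmgcs1 and Srebf2 had lower means in the TG livers, at -0.23 ± 0.47 and -0.46 ± 0.50 (limma adjusted p over all probes 0.889 and 0.763). By the brightest probes Srebf2 differed by 0.04 ± 0.27, Sqle by 0.01 ± 0.40 and Mvd by 0.08 ± 0.40 in liver. Their 95% intervals were -0.56 to 0.64, -0.87 to 0.89 and -0.79 to 0.96. These intervals do not show that the genotypes were alike.

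By the brightest probes Lss and Insig1 had lower means in the TG livers. For Insig1 the difference was -0.37 ± 0.22 (SE, limma adjusted p = 0.631), and all TG livers lay below all CTR livers, as in 11.3% of all units in one direction or the other. Its second probe differed by -0.13 (adjusted p over all probes 0.831), with 0.15, 0.08 and 0.10 in TG and 0.14, 0.22 and 0.36 in CTR livers, which overlap. For Lss the difference was -0.43 ± 0.30 (adjusted p = 0.667) with overlapping groups. The second Lss probe stood at 0.19, 0.44 and 0.27 in TG livers and 1.06, 0.69 and 0.77 in CTR livers, which did not overlap, and differed by -0.54 ± 0.20 (adjusted p over all probes 0.542). The median over the 6 genes in liver was 0.03, where that of all units was 0.13. Over all 10 probes of the genes the median was -0.18. After quantile normalization the median was 0.01 over the 6 genes and 0.02 over all units.

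In esophagus the TG minus CTR difference of Insig1 was -0.34 ± 0.22 (SE), and of its second probe -0.51 ± 0.19, each with an adjusted p of 1 in limma. On the brightest probe its TG esophagi, at -1.79 to -1.43, overlapped the CTR ones, at -1.57 to -0.95. The second Insig1 probe stood at -3.21, -3.19 and -3.06 in TG and -2.90, -2.18 and -2.85 in CTR esophagi. These values did not overlap, as in 12.5% of all units in one direction or the other. By their brightest probes the other 5 genes differed by between -0.19 (Mvd) and 0.13 (Srebf2), with SEs of 0.27 to 0.60 and an adjusted p of 1. The second probes of Hmgcs1, Lss and Srebf2 differed by -0.53, -0.17 and 0.14. The median of the 6 was -0.12, beside -0.0033 over all units. Markers of neighbouring tissues differed in mean between TG and CTR esophagi, and none of them passed the test (smallest adjusted p 0.243 for heart, 0.531 for fat and 1 for airway markers). Heart markers, all 8 with a probe, summed to 38.9 to 48.6 in TG and 55.4 to 254 in CTR esophagi, and were lower in TG for 8 of 8. Airway markers summed to 1.41 to 109 and 29.2 to 257, lower for 5 of 6 tested of 8, and fat markers to 56.3 to 217 and 131 to 249, lower for 10 of 10; the sums of both overlapped between the genotypes. Hepatocyte and leukocyte markers were each lower for 7 of 7 tested. None of the heart, airway and fat markers was below background on every array of either esophagus group, and the part of any of these lists in the differences of the synthesis genes was not tested.

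Whether the genotype difference itself differed between organs was tested as well. Esophagus minus liver, it was largest for Hmgcs1, at -0.64 ± 0.85 (SE), and smallest for Insig1, at 0.03 ± 0.31. The adjusted p in limma was 0.957 to 0.994 for the 6 genes, and 0 of 24432 units (0%) were called, with 4.98% at an unadjusted p under 0.05. Slides allow little more. The only liver pair of different genotype on one slide, TG3 and CTR2, differed by -0.78 (Lss) to 0.12 (Srebf2), with a median of -0.20 over the 6 genes. The only esophagus pair, TG1 and CTR2, differed by -0.36 (Lss) to 0.18 (Srebf2), with a median of -0.08.

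**Figure D3:**
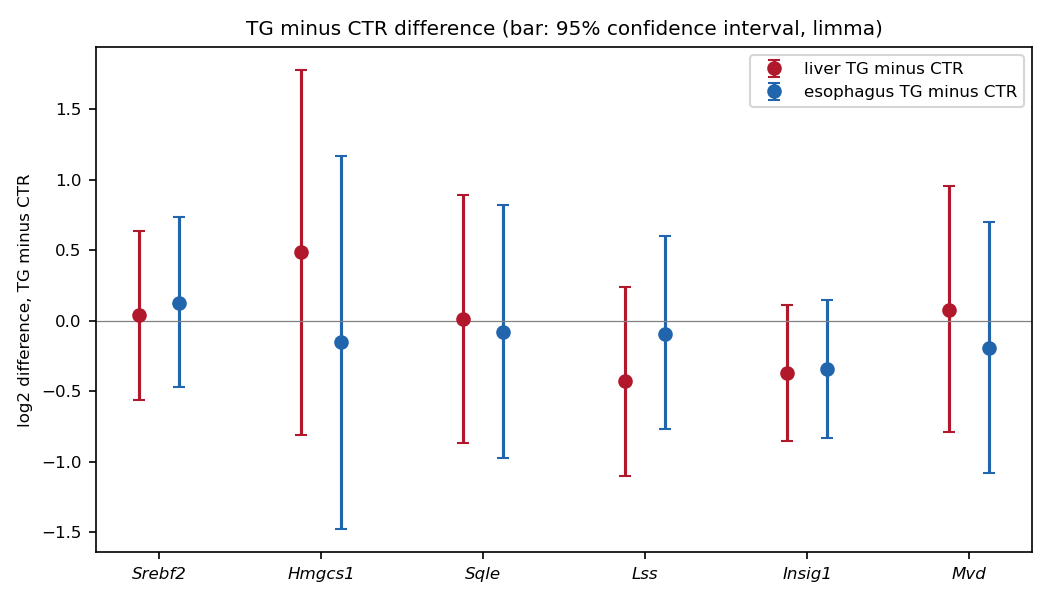
TG minus CTR difference in log2 signal (vertical axis) for each of the 6 genes by its brightest probe, with liver in red and esophagus in blue. Bars are 95% confidence intervals from limma with n = 3 arrays per group. Every interval crosses 0, and those of Hmgcs1 are the widest.

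The enzymes among the synthesis genes differed between livers of the same group. Liver TG2 and liver CTR1, of opposite genotype, were the 2 highest of the 6 livers for 5 of the 6 genes by their brightest probes, and Insig1 was the exception. By every probe this held for 3 genes, Hmgcs1, Mvd and Sqle, of which Mvd and Sqle have a single probe. The second Lss probe was highest in CTR1 and CTR3, and the second Srebf2 probe in CTR2 and TG3. The deviations from the mean of the 6 livers were 1.15 and 1.10 for Hmgcs1, 0.71 and 0.84 for Sqle, 0.71 and 0.87 for Mvd, 0.23 and 0.79 for Lss and 0.31 and 0.48 for Srebf2 in TG2 and CTR1. For Insig1 they were -0.06 and 0.03, and liver CTR3, the lowest for Hmgcs1, was the highest for Insig1. Of 11317 genes well above background on all 6 livers, 14.5% had these same livers as their 2 highest and 13.6% as their 2 lowest. The pair of livers was singled out after its values were seen, so these counts are a description and carry no test. The livers came from slides 5 and 2, and their hepatocyte markers deviated by a median of 0.13 and -0.17. Fat markers, 6 of 10 above background on every liver, deviated by a median of -1.05 and -1.50. These livers were the 2 lowest for 3 of the 6, Cidea, Cidec and Cfd. The rest did not share that order. Fabp4 stood at 2.42 in TG2 and 2.40 in CTR1, beside 1.55 to 2.52 in the other livers. Lipe stood at -1.53 and -1.01, beside -1.44 to -0.68, and Retn at -4.54 and -4.43, beside -4.61 to -2.92. Leukocyte markers, 4 of 8 above background on every liver, deviated by 0.42 and 0.31, and endothelial markers by 0.12 and 0.11. The part of these lists in the synthesis genes was not tested.

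Across the 6 livers the 5 genes without Insig1 correlated with each other at a Pearson r of 0.67 to 1.00, with a median of 0.87 over 10 pairs. Insig1 correlated with them at -0.46 to 0.27. Across the 6 esophagi the same 10 pairs gave 0.33 to 0.92, and Insig1 with the others 0.01 to 0.50. All members of a pair share the same arrays and scaling, and 6 arrays carry such values loosely. Esophagus TG2 was below the mean of the 6 esophagi for 6 of 6 genes.

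By the brightest probes the SD over the 6 livers exceeded that over the 6 esophagi for 6 of 6 genes, as for 66.8% of 10949 genes well above background on all arrays. For Hmgcs1 the SD was 1.05 in liver and 0.19 in esophagus, and for Mvd 0.63 and 0.26, for Sqle 0.61 and 0.29 and for Lss 0.50 and 0.24. The regulators had like SDs in both organs, at 0.32 and 0.30 for Srebf2 and 0.30 and 0.30 for Insig1. The share of all those genes that varied at least as much in liver was 1.76% for Hmgcs1, 10.4% for Mvd, 11.3% for Sqle, 18.3% for Lss, 41.5% for Srebf2 and 45% for Insig1. By the brightest probes the wide spread between livers was thus that of the 4 enzymes. The 2 regulators lay near the median SD of all genes, 0.28. The second Srebf2 probe spread more, at 0.81 in liver and 0.41 in esophagus, and the second Lss probe less, at 0.33 and 0.26. The split between enzymes and regulators therefore rests on the brightest probes. By the brightest probes Hmgcs1 had the largest liver SD and the smallest esophagus SD of the 6 genes. Its second probe gave 0.78 in liver and 0.41 in esophagus, so the narrow esophagus values rest on 1 of its 2 probes. The second Insig1 probe varied less in liver (0.11) than in esophagus (0.38).

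Other genes of the pathway were read over the same livers, from lists chosen with earlier results of these data known. Their counts are a description and carry no test. Among 11317 genes well above background on all 6 livers, 14.5% had TG2 and CTR1 as their 2 highest and 13.6% as their 2 lowest. Of the 4 other enzymes of the mevalonate steps, 3 had TG2 and CTR1 as their 2 highest livers: Acat2, which joins acetyl-CoA units, and the kinases Mvk and Pmvk. Of 11 other enzymes of the sterol steps, 6 did: Fdft1, the squalene synthase, Cyp51, Msmo1, Nsdhl, Hsd17b7 and Dhcr7. Insig2, the second gene of the INSIG family, stood at 3.77, 5.62 and 3.78 in the TG livers and 5.84, 4.11 and 3.67 in the CTR livers on the normalized log2 scale. Its correlation with the mean of the 6 synthesis genes was 0.96 over the 6 livers, unlike that of Insig1. Srebf1, which encodes the SREBP forms that drive fatty acid synthesis, ran opposite, at 6.69, 5.66 and 7.10 in TG and 5.33, 6.62 and 6.67 in CTR livers (r = -0.99).

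Of 8 genes of fatty acid synthesis, 5 had TG2 and CTR1 as their 2 lowest livers, namely Fasn, Acly, Elovl6, Me1 and Thrsp, and none had them as the highest. The median deviation of the 8 was -1.20 in TG2 and -1.30 in CTR1 and between 0.07 and 0.86 in the other livers. Clock genes moved too: 9 of 14, among them Per1, Per2, Dbp and Ciart, were lowest in these livers, and Arntl, Clock and Nfil3 were highest. Per2, a core clock gene that cycles through the day, deviated by -1.78 in TG2 and -1.65 in CTR1 and by 0.61 to 1.23 in the others. In the esophagi Per2 was low in TG1 (-1.92) and TG2 (-1.46) and between 0.27 and 1.26 in the rest, so in mice TG1 and CTR1 liver and esophagus lay on opposite sides of their organ's mean. Of 9 fasting genes, 3 were lowest in TG2 and CTR1 (Cpt1a, Pdk4 and Cyp4a14) and none highest. The sources used here give neither the time of day nor the feeding state at sampling, and the part of the clock and fasting genes in these differences was not tested.

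**Figure D4:**
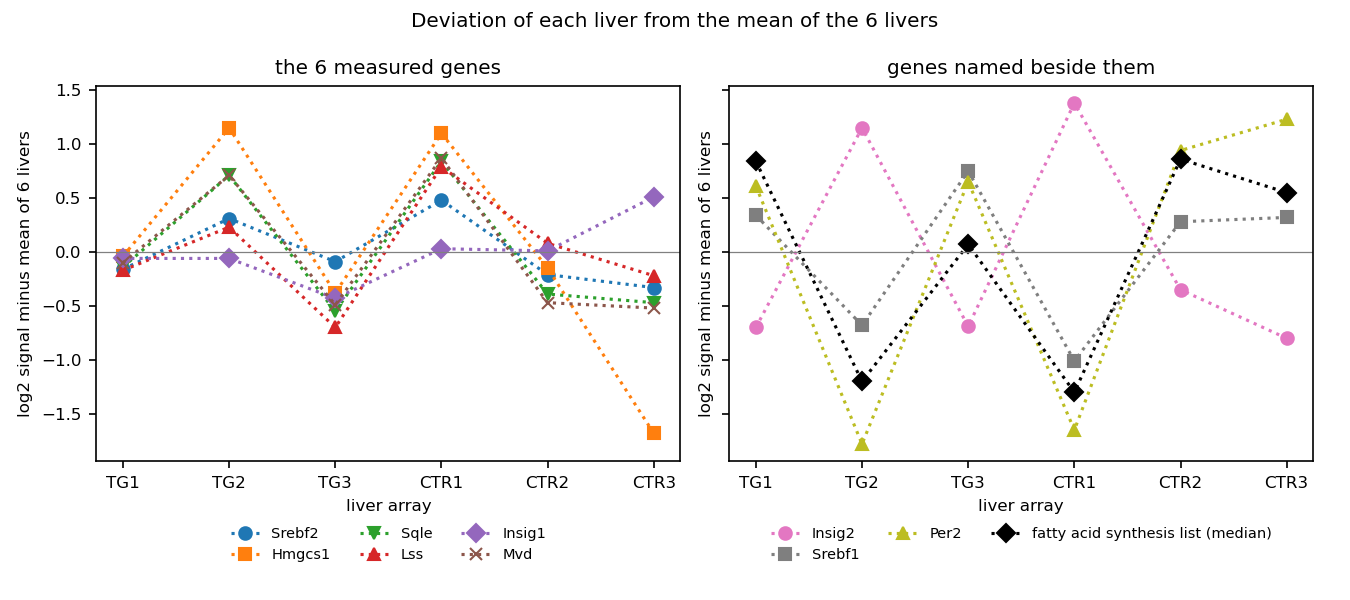
Deviation of each of the 6 livers (horizontal axis) from their mean in log2 signal (vertical axis), for the 6 synthesis genes by their brightest probes on the left and for Insig2, Srebf1, Per2 and the median of 8 fatty acid synthesis genes on the right; dotted lines only link the points of a gene, and the arrays have no order. TG2 and CTR1 are high for every synthesis gene except Insig1 and for Insig2, and low for Srebf1, Per2 and the fatty acid synthesis genes.

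With liver TG2 and liver CTR1 left out, none of the 6 genes passed in TG against CTR livers, and 32 units of the array did. Leaving out TG2 alone gave 18 called units, TG1 alone 6, CTR1 alone 5 and CTR2 alone 1, and without TG3 or CTR3 there were 0. None of the 6 genes was among the calls under any of these settings.

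The genes most like the synthesis genes were found by their correlation with the mean of the 6 over the arrays of an organ. In liver these were Pid1 (0.995), Tpd52 (0.995), Rab11fip5 (0.993), Flot1 (0.992) and Slc25a30 (0.990), out of 5295 genes with an SD of at least 0.3. Without liver CTR1 and TG2 the correlations of these 5 were 0.93 to 0.99 over the other 4 arrays. Slc25a30, a mitochondrial carrier, stood at -0.08 and 0.35 in those livers and at -2.54 to -1.49 in the other 4. A correlation of 0.9 or higher was held by 2.91% of the 5295 genes and one of -0.9 or lower by 3.68%. In esophagus the leading genes were Serpinf2 (0.961), Nup188 (0.950), Folr1 (0.935), 4931428F04Rik (0.930) and Vsig4 (0.930) of 4381. Without esophagus TG2 and CTR3 they ranged from -0.99 to 1.00, so the esophagus order rests on those arrays.

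Other genes of the pathway were compared between the organs in the same way. Of all units, 34.6% were called lower and 27.8% higher in CTR mice, and 38.9% and 24.4% in TG mice. In CTR mice 3 of 4 other mevalonate enzymes were called lower in the esophagus and 0 higher, and 8 of 11 sterol enzymes lower and 1 higher; the counts were the same in TG mice. Those with the smallest p in CTR mice were Acat2 at -5.88 ± 0.28 (SE, limma adjusted p = 3.21e-08), and in the sterol steps Tm7sf2, a sterol reductase, at -3.55 ± 0.20, Nsdhl at -3.23 ± 0.29 and Sc5d at -2.62 ± 0.16. The medians were -0.88 for the mevalonate list and -1.88 for the sterol list, beside -0.65 for the 6 genes and -0.14 for all units. Of 4 tested genes of SREBP processing 3 were lower: Scap, the escort of SREBP, at -1.29 ± 0.20, Insig2 at -2.68 ± 0.59, and Srebf1 (adjusted p = 0.00165). For sterol uptake and transport 4 of 7 were lower and 1 higher, among the lower ones the HDL receptor Scarb1 at -3.75 ± 0.27 and the lysosomal lipase Lipa at -4.45 ± 0.24. All 4 genes of bile acid synthesis, which is the work of hepatocytes, were lower, by a median of -8.07.

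In TG against CTR mice none of these pathway genes passed in either organ, as no unit did. In esophagus the one with the smallest p was Stard4, a cytosolic sterol carrier that is itself switched on by SREBP-2. In the esophagi it stood at 1.32, 1.31 and 1.17 in TG and 0.41, 0.58 and -0.16 in CTR mice, and in the livers at 4.05, 3.73 and 3.92 and 3.35, 3.12 and 3.47. The groups did not overlap in either organ, and TG was higher in both. The differences were 0.99 ± 0.21 (SE, limma adjusted p = 0.684) in esophagus and 0.58 ± 0.20 (adjusted p = 0.579) in liver. Cyp27a1, a gene of bile acid synthesis, had a smaller p in liver (limma adjusted p = 0.574). Of the 26 tested genes of the mevalonate, sterol, SREBP processing and uptake lists, 4 did not overlap between genotypes in esophagus (15.4%, beside 12.5% of all units). In esophagus TG was higher for Stard4 and Hsd17b7 (0.58 ± 0.42) and lower for Pmvk (-0.54 ± 0.20) and Acat2 (-0.64 ± 0.28), the last 3 each with an adjusted p of 1.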

How the data were processed

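Total RNA of 12 samples was labelled with Cy3 and read on Agilent arrays of design 14868, 1 array each. The deposited scanner files hold spot intensity on a linear scale, made per the file headers with Agilent Feature Extraction 10.7.1.1, which subtracted background within an array. A second deposited table, by the authors, holds log2 values; its column medians all equal 7.27, and limma is named per the submitters' processing notes, with no settings. That table served as an alternative.

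Control spots and 1311 outlier spots were left out, and spots of a probe averaged. Accessions were matched to RefSeq (GRCm38.p6), naming 23374 probes; 17800 stayed unnamed. The array's own annotation is on mm8, so coordinates are given only for the RefSeq windows. Values are log2 of the processed signal minus the array's 75th percentile. Units were tested if well above background throughout at least 1 of the groups compared. One limma fit (3.58.1, R 4.3.3; two-sided, 8 residual degrees of freedom) took all 12 arrays in 4 groups without a block, and was checked on simulated data. The series' design calls the 3 mice per genotype biological replicates, and their small number limits the precision.

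Liver and esophagus of one mouse share an animal number in the labels; their deviations correlated at -0.04 to 0.22. The 12 arrays lay on 5 slides. Alternatives were quantile normalization, normexp, the authors' table, no filter, every probe, blocks for slide, animal or replicate number, fewer groups and each array left out. Normexp used the median spot signal, since the mean signal planned for it is no column of these files. The genes and lists were chosen with earlier results of these data known. Named were the 6 genes, Nanog, up to 4 tested genes per list with the smallest p in the contrast described and, for likeness, the 5 highest correlations per organ. Genes named for their order over the livers or for groups that did not overlap were chosen after their values were seen. Figures used matplotlib 3.10.9 (Python 3.11.15).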

Additional observations from a re-analysis of the deposited data

How the results depend on the processing

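Over 30 results for the 6 genes (5 contrasts each) and 540 alternatives, 474 kept their direction and side of the threshold, 9 lost the threshold, 5 gained it and 52 changed sign. The sign changes concern differences smaller than their SE. The largest were those of Hmgcs1, TG minus CTR in liver (0.49) and the difference between organs (-0.64). Without liver CTR3 these became -0.23 and 0.08. None of the alternatives called one of the 6 genes in TG against CTR. The lost and gained calls of Srebf2, Hmgcs1, Sqle and Lss between organs stand in the report; with liver TG2 and esophagus TG1 left out, a pair chosen after seeing the data like all pairs left out below, Hmgcs1 in TG mice gave -1.54 (limma adjusted p = 0.107). The causes were not tested.

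With slide as a fixed block the TG minus CTR difference became -0.20 for Srebf2, -0.35 for Sqle and -0.18 for Mvd in liver and 0.19 for Hmgcs1 in esophagus, the difference between organs 0.20 for Sqle, -0.02 for Insig1 and 0.0013 for Mvd, and the organ difference of Mvd in CTR mice -0.15. With slide as a random block Sqle in liver became -0.03. Srebf2 in liver became -0.11 with normexp and -0.11 in the authors' table, and Sqle -0.02 with quantile normalization, -0.00099 with normexp and -0.0017 in the authors' table. With liver TG2 and esophagus TG1 left out, Lss and Mvd in TG mice became 0.0029 and 0.02.

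With each array left out in turn, TG minus CTR in liver ran from -0.11 to 0.29 for Srebf2, -0.23 to 1.16 for Hmgcs1, -0.34 to 0.44 for Sqle and -0.26 to 0.54 for Mvd. In esophagus it ran from -0.06 to 0.31 for Srebf2, -0.23 to 0.15 for Sqle, -0.22 to 0.05 for Lss and -0.30 to 0.02 for Mvd. The difference between organs ran from -0.15 to 0.27 for Srebf2, -1.31 to 0.08 for Hmgcs1, -0.51 to 0.26 for Sqle, -0.13 to 0.21 for Insig1 and -0.73 to 0.07 for Mvd. Organ differences ran from -0.18 to 0.51 for Mvd in CTR mice, and from -0.46 to 0.01 for Lss and -0.48 to 0.12 for Mvd in TG mice.

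Units called over the whole array in TG against CTR numbered 0 in liver, 32 with liver TG2 and CTR1 left out and 0 to 18 with one array left out. In esophagus they numbered 0, with 1 after quantile normalization, 2 with normexp, 2 in the authors' table, 1 with slide as a fixed block, 1 with only its own groups, 3 with esophagus TG1 and CTR1 left out and 0 to 7 with one array left out (7 without TG2). For the difference between organs they numbered 0, with 1 after quantile normalization, 1 with normexp, 1 in the authors' table and 0 to 1 with one array left out.

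Replicate numbers did not pair the genotypes: deviations of TG and CTR arrays of one number correlated at -0.47 to 0.19. With the replicate block 0 units were called in liver and 0 in esophagus, and the median of the 6 genes stayed at 0.03 and -0.12. With animal as a block for the organ contrasts, 14181 units were called in CTR mice and 14678 in TG mice, and no call on the 6 genes changed.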

Other observations

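Enzymes and pumps that remove cholesterol from the liver were read as well. Cyp27a1, an enzyme of bile acid synthesis, stood at 3.01, 2.55 and 2.30 in the TG livers and 3.04, 3.33 and 4.01 in the CTR livers, without overlap, and differed by -0.84 ± 0.27 (SE, limma adjusted p = 0.574). Abcg5, which pumps sterols into bile, stood at 5.70, 6.07 and 6.19 in the TG livers and 5.48, 5.66 and 5.72 in the CTR livers, with overlap, and differed by 0.37 ± 0.29 (adjusted p = 0.7). Of 9 genes of sterol efflux, esters and their nuclear receptors, 7 had lower and 2 higher means in the TG livers. Abcg5 was among the 2, while Abcg8 was among the 7, with means of -1.72 in TG and -1.22 in CTR livers. Of the 9 genes, 0 passed in limma, with 0 at an unadjusted p under 0.05. Liver TG2 and CTR1, the livers with high synthesis genes, were the 2 lowest for 2 of these 9 genes (Abcg8 and Soat2) and the 2 highest for 0. Acaca, the enzyme of the first step of fatty acid synthesis, was the member of that list with the smallest p in TG against CTR livers, at 1.04 ± 0.40 (adjusted p = 0.589), and it was not among the 5 genes of the list that were lowest in TG2 and CTR1.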
